A study of Mus musculus with 33 samples.

Results

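The regions described here are the H3K4me3 domains that mouse embryoid bodies gained during differentiation. A domain of the WT EB week3 list was called new when it shared no base with any WT mESC domain and at least 1 bp with a WT EB week2 domain. Of the 27350 WT EB week3 domains, 7166 (26.2%) met this rule. The members were thus chosen by overlap in those WT H3K4me3 lists, and the absence in WT mESC and the presence at weeks 2 and 3 are a description rather than a result. For comparison, 15570 domains were also present in WT mESC and WT week2 (called kept), and 2974 were in neither (called week3-only).

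The study profiled histone marks and transcription factors by ChIP-seq, which sequences the DNA that an antibody against a mark pulls down. E14 cells, a mouse embryonic stem cell (mESC) line, were either WT or Uhrf1 KO, and were taken undifferentiated or after 1, 2 or 3 weeks as embryoid bodies (EBs), aggregates formed in hanging drops. Both the WT and the KO cells were obtained from another laboratory, and as no second line of either genotype entered these lists, line and genotype cannot be told apart. Each combination of genotype, stage and target had 1 library, which leaves no replicate spread to judge a difference by. No p-value is given, and the 95% intervals (Wilson's method for shares, Newcombe's for differences of shares) cover only the counting error over domains. EBs hold many cell types, and in such bulk material more cells with a mark and more of the mark per cell cannot be told apart.

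H3K4me3 is laid down by the COMPASS family of methyltransferases at the starts of active genes and at some active enhancers. H3K27me3, the product of Polycomb repressive complex 2, keeps lineage genes silent in stem cells, where the marks can coincide in the state called bivalent, and H3K9me3 marks heterochromatin. Uhrf1 reads histone tails and hemimethylated DNA, and recruits Dnmt1 to copy DNA methylation after replication. DNA methylation falls mainly on CpG dinucleotides, and many promoters lie in CpG-rich islands that stay free of it.

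The 300 bp before the start of 2 genes with a new domain are printed first, because both starts are poor in CpG while the genes differed in KO EBs. Col3a1, a fibrillar collagen gene, was marked at every EB stage in both genotypes. Tm4sf4, a tetraspanin-like gene of liver and intestine, had no domain in any KO EB list. The sequences were read from the NCBIM37 (mm9) genome, run 5′ to 3′ on the strand of the gene, and have each CG in capitals.
Col3a1 (chr1:45368083-45368382, forward strand): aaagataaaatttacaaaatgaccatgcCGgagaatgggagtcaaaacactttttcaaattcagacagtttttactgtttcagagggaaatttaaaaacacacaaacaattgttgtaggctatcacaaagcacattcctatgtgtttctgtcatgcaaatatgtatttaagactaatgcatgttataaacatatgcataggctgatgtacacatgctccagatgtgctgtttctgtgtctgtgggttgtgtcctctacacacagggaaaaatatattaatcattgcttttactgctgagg
Tm4sf4 (chr3:57228936-57229235, forward strand): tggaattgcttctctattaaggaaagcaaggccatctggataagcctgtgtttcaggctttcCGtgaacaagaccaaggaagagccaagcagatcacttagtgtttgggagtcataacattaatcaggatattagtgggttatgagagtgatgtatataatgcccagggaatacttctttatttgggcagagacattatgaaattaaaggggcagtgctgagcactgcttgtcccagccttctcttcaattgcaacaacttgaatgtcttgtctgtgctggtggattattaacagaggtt
Each window held 1 CG, at a GC content of 35.3% for Col3a1 and 42.0% for Tm4sf4.

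New domains were short and weak beside kept ones. Their median length was 1600 bp (middle 50% from 1200 to 3200 bp), against 6800 bp for kept domains. Their median mean read count per 400 bp bin was 9.50 against 14.4, and their median score, which grows with the number of bins, was 3.80 against 16.1. They covered 17.9 Mb and lay a median of 33.5 kb from the nearest WT mESC domain. At the edge of the rule, 112 (1.56%) had a WT mESC domain within 1300 bp, and 132 kept domains shared at most 400 bp with one. Toward week2, 864 new domains shared at most 400 bp with a week2 domain, and 30 week3-only domains had a week2 domain within 400 bp. The mESC lists were made in bins of 1300 bp, and 2886 new domains (40.3%) were shorter than that, so a mark as short as these could go unlisted in mESC. The part of bin size in the absence from mESC was not tested.

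Chromosomes 8 and 11 stood apart in several lists and are given here before the results that rest on them. Chromosome 8 is 4.96% of the genome and carried 673 new domains (9.39%), or 5.11 per Mb. The other autosomes carried 1.99 to 3.57 per Mb and the X chromosome 0.978. In WT, the share of listed H3K4me3 domains on chromosome 8 was 5.82% in mESC, 6.76% at week1, 7.78% at week2 and 7.79% at week3, and the KO lists held 4.89 to 6.09%. By bases, H3K4me3 domains covered 12.6% of chromosome 8 in WT mESC, against 7.12% of chromosomes other than 8 and 11. In WT EBs these shares were 6.83% and 3.56% at week1, 15.6% and 7.10% at week2, and 12.5% and 5.50% at week3. In KO they were 6.93% and 6.53% in mESC, 2.95% and 2.51% at week1, 7.97% and 5.22% at week2, and 9.69% and 5.63% at week3. The WT mESC H3K4me3 list covered 23.4% of chromosome 11, the autosome with the fewest new domains per Mb (1.99). WT mESC H3K9me3 covered 81.0% of chromosome 8 and 76.2% of chromosome 11, against 32.8% of the other chromosomes. KO mESC H3K9me3 covered 96.3% of chromosome 11. New domains of chromosome 8 had a lower median mean count (8.34), and only 4.31% lay at a gene start, against 13.7% elsewhere. Their share present in KO week3 was 45.3%, 18.9 points (14.9 to 22.8) below the rest. The cause of these chromosome-wide differences was not tested, and values without both chromosomes are given where they move a result.

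**Figure D1:**
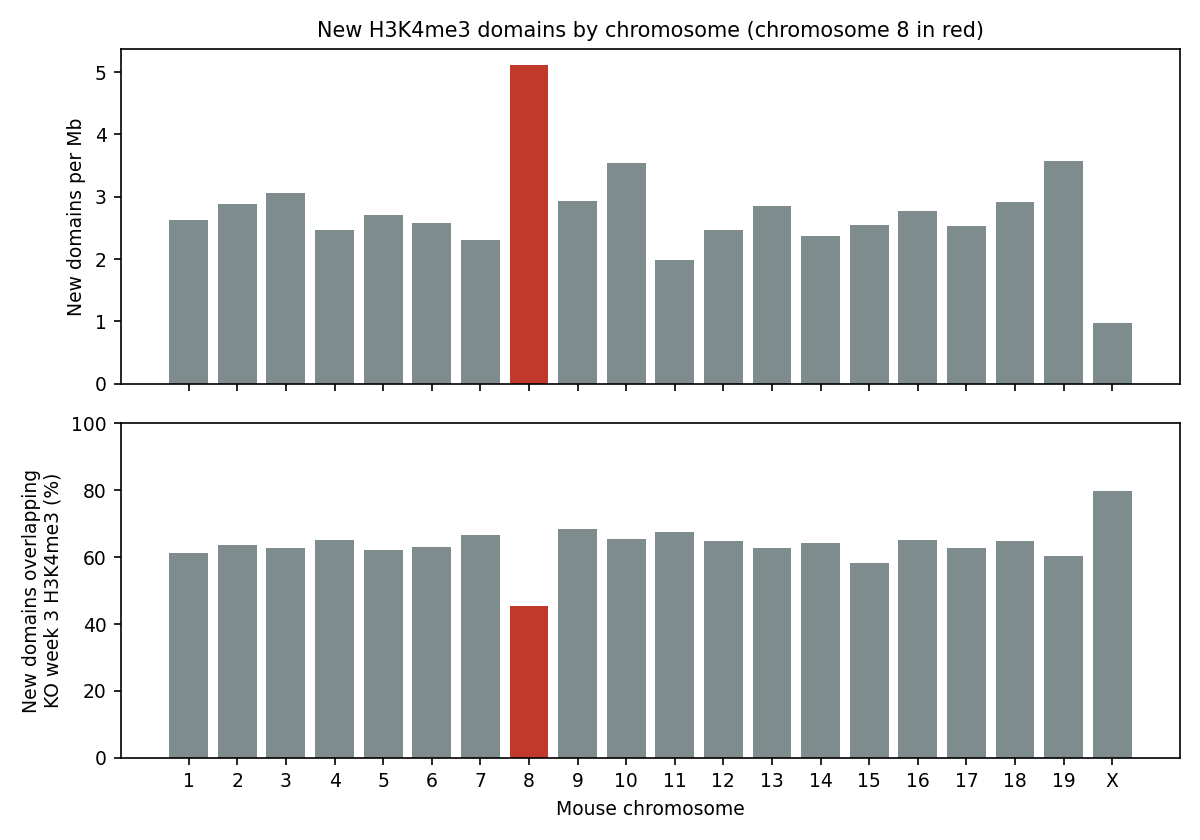
New H3K4me3 domains per Mb (top) and the percentage of them that overlapped a KO week3 H3K4me3 domain (bottom) for each mouse chromosome, with chromosome 8 in red. Chromosome 8 held 5.11 new domains per Mb and the lowest share in KO week3, 45.3%, whereas the X chromosome held 0.978 per Mb and 79.8%.

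Most new domains lay away from promoters. A protein-coding gene start lay within 2 kb of 921 of them (12.9%, 12.1 to 13.6), against 43.8% of all week3 domains and 67.6% of kept ones. Another 342 (4.77%) lay at the start of an alternative transcript, 2967 (41.4%) inside a gene body and 2936 (41.0%) between genes. Those at gene starts were longer, with a median of 3200 bp and a median score of 7.12, than those in gene bodies (1600 bp and 3.80) or between genes (1200 bp and 2.98). When both classes were split into 5 groups by length, new domains were at a gene start less often than kept ones in each, with a weighted difference of -17.6 points.

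Most new domains were also present in Uhrf1 KO EBs. A KO week2 domain overlapped 5294 of them (73.9%, 72.8 to 74.9) and a KO week3 domain 4475 (62.4%, 61.3 to 63.6), where the shares over all week3 domains were 80.3% and 79.4%. The KO H3K4me3 lists held 11509 domains in mESC, 19041 at week1, 32702 at week2 and 28789 at week3. In WT these numbers were 15272, 18672, 39898 and 27350. The part of list size in differences between stages was not tested. At least 1 of the 3 KO EB lists held 5923 (82.7%), and 1243 (17.3%) were in none. Absent from KO mESC as well were 16.7% of new, 0.694% of kept and 58.8% of week3-only domains. By the same rule applied to the KO lists (absent in KO mESC, present at KO weeks 2 and 3), 3427 (47.8%) were new in KO as well. Those also in KO week1 made 20.7% of new and 7.30% of kept domains. Those not in KO week1 made 27.1% and 6.30%. The 1243 absent ones were short, with a median of 1200 bp and a median score of 2.63, against 2000 bp and 3.99 for those present. Presence in KO week3 rose with the score, from 44.9% in the lowest of 5 equal groups to 86.1% in the highest.

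Kept domains were present in KO week3 in 97.6%, 35.1 points more (34.0 to 36.3) than new ones. The gap remained within each of the 5 length groups, from 15.1 points among the longest to 32.0 points at 1200 bp. Week3-only domains were present in 29.3%. New domains thus lay between both classes, and 33.2 points (31.2 to 35.1) above the week3-only ones.

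**Figure D2:**
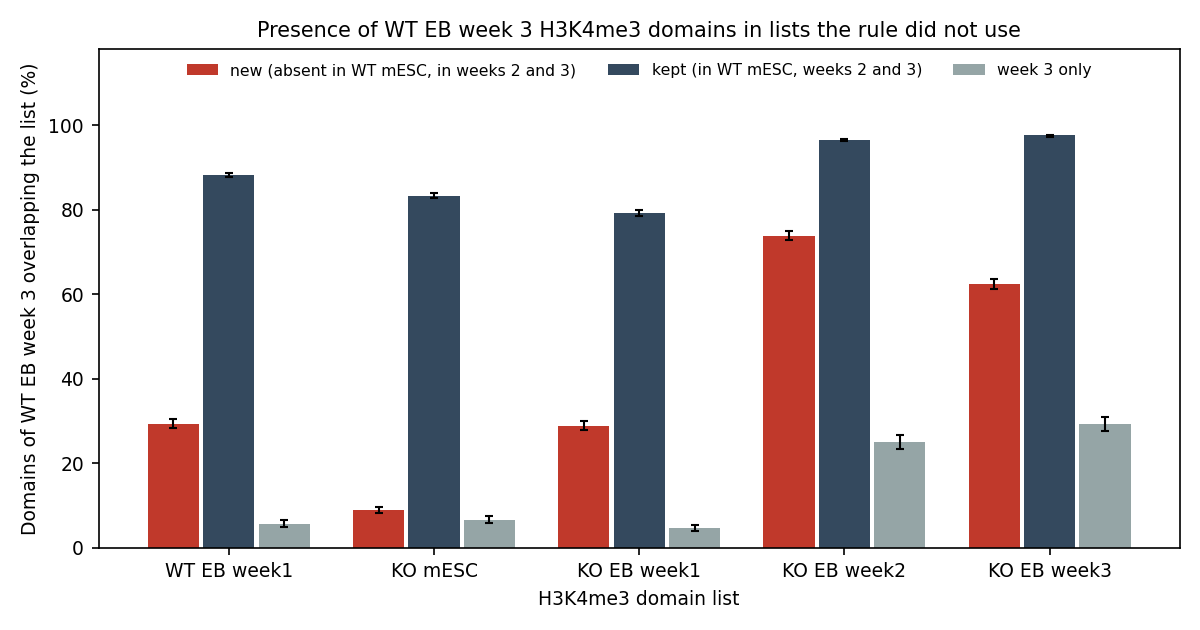
Percentage of new (red), kept (dark) and week3-only (grey) WT EB week3 domains that overlapped each H3K4me3 list not used to choose them, with 95% Wilson intervals as error bars. New domains were at 8.92% in KO mESC, a list of 11509 domains, and at 73.9% in KO week2, a list of 32702. In every list they lay below kept and above week3-only domains.

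Few new domains were already marked in KO mESC. A KO mESC domain overlapped 639 of them (8.92%, 8.28 to 9.60), against 53.6% of all week3 domains and 83.3% of kept ones. The rule chose new domains for absence from WT mESC and kept ones for presence there, so this gap is not independent of the rule. Week3-only domains, also chosen as absent from WT mESC, gave 6.69%. Of the 639, 536 were also present in KO week3, and 49 were in no KO EB list. The share was 13% at gene starts and 8.31% elsewhere. Among domains over the median score of the whole week3 list it was 16.4%.

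Week1 was nearly the same in both genotypes by count, yet the domains were not all the same. WT week1 held 2109 new domains (29.4%, where all week3 domains gave 59.5%) and KO week1 held 2066 (28.8%, where all gave 53.5%). Of these, 1279 were in both, 830 were in WT week1 alone and 787 in KO week1 alone. This split was not counted over all week3 domains, so it is not shown to be particular to new ones. New domains in WT week1 were present in KO week3 in 87.6%, against 52.0% of those not listed in WT week1. The difference was 35.6 points (33.6 to 37.5). It ranged from 18 to 42 points within the length groups. At gene starts, WT week1 held 59.5% of new domains and KO week1 49.1%.

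The same rule run on the KO lists gave the mirror image. In KO, 8597 of 28789 week3 domains (29.9%) were new, with a median length of 2000 bp. Of these, 31.8% overlapped a WT mESC domain, where WT cells listed H3K4me3 before differentiation and the KO line did not. Among the 5866 KO-new domains with no WT mESC domain, 74.2% were in WT week2 and 66.0% in WT week3. Of the 14324 domains kept in KO, 94.5% overlapped a WT mESC domain, 93.2% a WT week2 and 95.7% a WT week3 domain. Shares over all KO week3 domains were not counted. These shares and those of the WT-new domains in KO rest on the same lists and are not independent of each other.

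The share of new domains in H3K27me3 chromatin in WT mESC was near the background. The number was 2461 (34.3%, 33.3 to 35.5), against 31.0% of all week3 domains, and this list covered 36.1% of the genome. H3K9me3 covered 1934 (27%, against 25.7% of all) and Uhrf1 regions, which are 10 kb windows, covered 94 (1.31%, against 1.48% of all). Counted exclusively, 1346 had H3K27me3 alone, 819 H3K9me3 alone, 1115 both and 3886 (54.2%) neither. Without chromosomes 8 and 11 the share with H3K9me3 was 19.5% and the share with H3K27me3 was 31.4%, since on chromosome 8 these were 79.9% and 56.0%. New domains exceeded kept ones in H3K27me3 by 5.04 points (3.74 to 6.36). Within the length groups the weighted difference was 0.537 points and its sign varied (-5.27 to 7.11).

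At gene starts new and kept domains differed more. Of new domains at a gene start 51.9% (48.7 to 55.1) had carried H3K27me3 in WT mESC, against 29.3% (28.4 to 30.2) of kept ones. Away from gene starts the shares were 31.8% and 29.3%. Of the 2461 new domains in mESC H3K27me3, 1285 (52.2%) overlapped H3K27me3 at WT week2 (23.5% of all week3 domains did) and 1532 (62.3%) at week3 (over all week3 domains, with or without mESC H3K27me3, the WT week3 share was 30.1%), where H3K4me3 was now also listed, and 688 (28.0%) had it at neither. At WT week1, where the H3K27me3 list covered 3.81% of the genome, 504 of the 2461 (20.5%) overlapped it (17.8% of all week3 domains did). Of the kept domains in mESC H3K27me3, 54.7% overlapped it at week1, 55.0% at week2 and 70.7% at week3. Overlap of both lists does not show that 1 cell carries both marks, since EBs are mixed.

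Presence in KO differed by the state in WT mESC most at week1, and presence in WT week1 differed as well. WT week1 listed 41.4% of new domains with H3K27me3 alone and 24.7% of those with neither mark. For KO week1 these shares were 36.9% and 24.0%. The same states differed in the share at a gene start, 24.2% against 9.86%. New domains with mESC H3K27me3 were in KO week1 in 36.2%, 11.3 points (9.03 to 13.6) above those without. In KO week2 the difference was -1.43 points, with an interval that held 0 (-3.60 to 0.705). In KO week3 it was 4.34 points (1.99 to 6.67), or 7.92 without chromosomes 8 and 11. Above the median score of the list it was 3.86 points, with an interval that held 0 (-0.196 to 7.56). In KO mESC those with H3K27me3 were marked less often, by 3.06 points (1.71 to 4.35). Domains with H3K9me3 alone were in KO week3 in 60.9% and those with neither mark in 61.0%, a difference of -0.0345 points (-3.75 to 3.59). The 94 with Uhrf1 were in KO week3 in 67.0%, and their difference from the rest, 4.63 points, had an interval of -5.44 to 13.4. Without chromosomes 8 and 11 the KO week3 shares were 70.1% with H3K27me3 alone, 68.4% with both, 63.9% with H3K9me3 alone and 61.3% with neither.

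**Figure D3:**
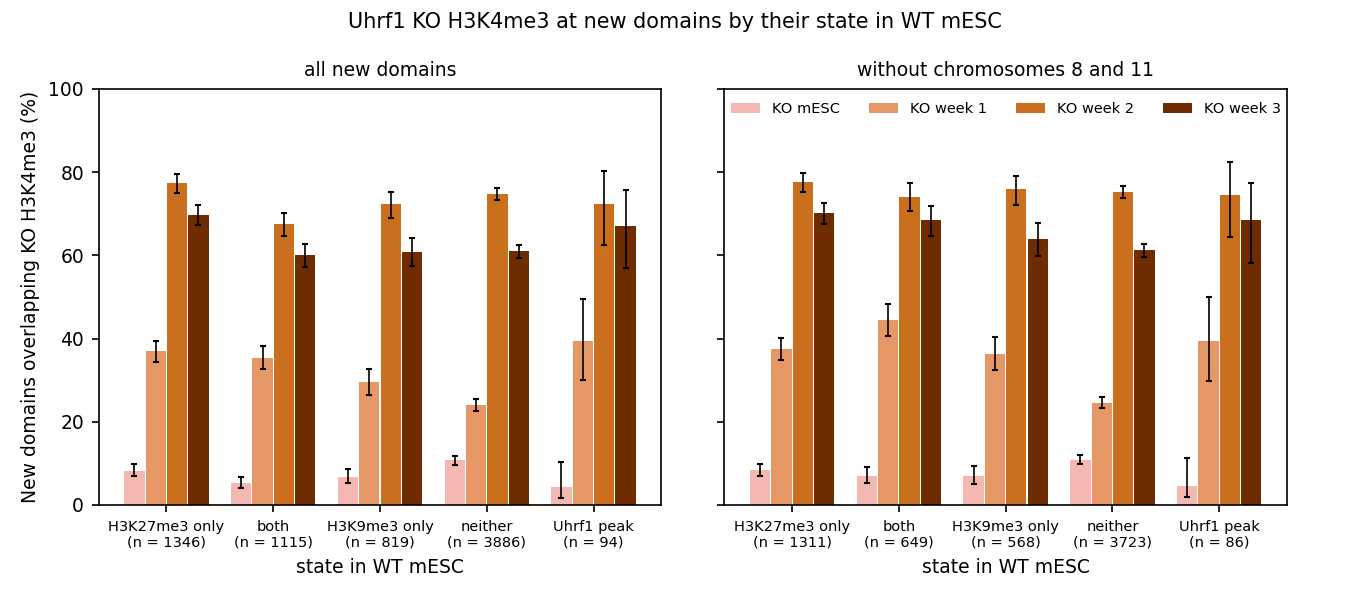
Percentage of new domains that overlapped H3K4me3 in KO mESC and KO weeks 1 to 3, by their state in WT mESC, with 95% Wilson intervals, for all new domains (left) and without chromosomes 8 and 11 (right). The first 4 states exclude each other, and the Uhrf1 group (n = 94) crosses them. Among those 4, KO week1 differs most, from 24.0% with neither mark to 36.9% with H3K27me3 alone (left) and from 24.5% with neither to 44.4% with both (right). The Uhrf1 group is at 39.4% in KO week1 (left). WT week1, which is not drawn, gave 24.7% with neither mark and 41.4% with H3K27me3 alone over all new domains.

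The pluripotency factors were seldom at these sites in WT mESC. An Oct4 summit lay in 262 new domains (3.66%, against 11.7% of all week3 domains), a Sox2 summit in 190 (2.65%, against 8.39%) and a Nanog summit in 1.41% (against 3.31%). Kept domains gave 16.1%, 11.9% and 4.31%, and they are longer. In KO mESC the shares of new domains were 0.684% for Oct4 (against 0.669% of all), 8.40% for Sox2 (against 30%) and 4.83% for Nanog (against 10.1%). As a percentage of bases, WT mESC Oct4 summits took 0.00160% of new and 0.00253% of kept domains. For Sox2 these were 0.00119% and 0.00173%. For Nanog the order was reversed, with 0.000699% of new and 0.000590% of kept. In KO mESC, new domains were higher than kept ones for Oct4 (0.000470% against 0.000117%) and Nanog (0.00229% against 0.00197%). They were lower for Sox2 (0.00371% against 0.00692%).

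Of 22367 protein-coding genes on nuclear chromosomes, 967 (4.32%) had a new domain within 2 kb of the start. For 951 of these no WT mESC domain lay within 2 kb, and they are called newly marked. In WT week1 564 (59.3%) were marked, in KO mESC 117 (12.3%), in KO week1 462 (48.6%), in KO week2 797 (83.8%) and in KO week3 787 (82.8%). The shares of all coding genes in these lists were 62.1%, 57.0%, 57.0%, 64.5% and 65.8%. H3K27me3 lay within 5 kb in WT mESC for 516 (54.3%), against 34.9% of all coding genes. The commonest course in KO was absence in mESC and presence at all 3 weeks (342 genes), then presence from week2 on (277 genes). No KO EB list held 71 genes (7.47%). Neither this share nor the numbers of genes in these courses were counted over all coding genes, so they are not shown to be particular to newly marked ones.

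Newly marked starts were intermediate in CpG content. The median observed over expected CpG ratio in the 300 bp before the start was 0.335 for newly marked genes, 0.691 for genes marked in WT mESC and week3, and 0.154 for genes with no WT H3K4me3 domain. A start was called CpG-rich when the ratio passed 0.6 and the GC content 50%, which held for 193 newly marked genes (20.3%, 17.9 to 23.0), against 55.9% of those marked in mESC and 1.98% of those never marked. CpG-rich newly marked genes differed from the other 758 in several lists. In WT mESC 72.5% of them had H3K27me3 within 5 kb, against 49.6%. In WT week1 87.6% carried H3K4me3, against 52.1%, and in KO week3 94.3%, against 79.8%.

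**Figure D4:**
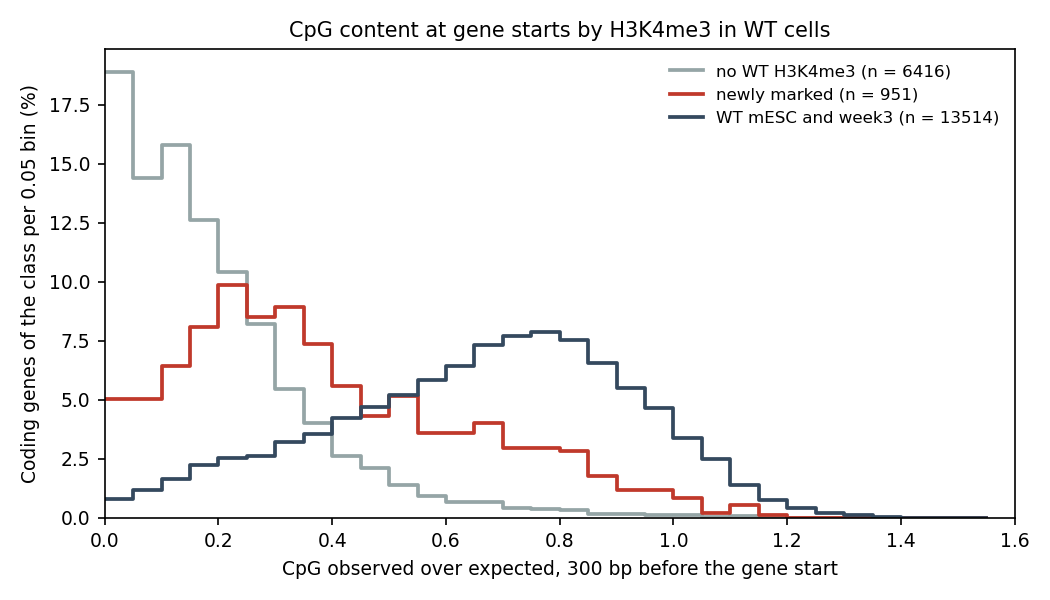
Distribution of the observed over expected CpG ratio in the 300 bp before the gene start, in bins of 0.05, as the percentage of genes in each class. Newly marked genes (red, n = 951, median 0.335) lie between genes with no WT H3K4me3 (grey, median 0.154) and genes marked in WT mESC and week3 (dark, median 0.691).

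Short sequence motifs were counted in the same windows on both strands, as letters rather than as bound sites. The AP-1 motif TGANTCA was present at 9.78% (8.05 to 11.8) of newly marked starts, 7.12% of all coding starts, 4.77% of starts marked in mESC and week3 and 11.4% of starts with no WT H3K4me3. The E-box CAGCTG was at 20.1% (17.7 to 22.7) against 13.7% of all and 13.4% of starts with no WT H3K4me3. The TEAD motif GGAATG was at 16.1% against 13.8% of all and 15.7% of starts with no WT H3K4me3. The GC-box GGGCGG, a CpG-containing motif, was at 34.1% against 40.9% of all, 59.4% of those marked in mESC and 7.67% of those with no WT H3K4me3. The GATA motif AGATAA (10.9% against 11.5%) and the RUNX motif TGTGGT (15.5% against 15.5%) were near the share of all starts, and below the 19% and 20.3% of starts with no WT H3K4me3.

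Lineage genes were read from lists that were chosen with earlier results of these data known. The extracellular matrix list stood out by count: 10 of its 19 genes (52.6%) were newly marked, against 4.25% of all coding genes. They were the collagens Col3a1, Col6a3 and Col6a1, the proteoglycans Dcn, Lum and Bgn, the elastic fibre genes Fbn1 and Eln, the crosslinking enzyme Lox, and Postn, a matricellular protein. All 10 were marked in WT week2 and week3 and in KO week2 and week3. In WT week1 Col3a1 and Fbn1 were marked, in KO week1 Col3a1 and Postn, and in KO mESC none.

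Dcn, which encodes decorin, was listed in neither genotype before week2. The domain at its start had a mean count per bin of 16.3 in WT week2, 18.8 in WT week3, 14.2 in KO week2 and 13.3 in KO week3. For Col3a1 the mean counts were 9.71, 22.0 and 21.6 at WT weeks 1, 2 and 3, and 11.4, 17.4 and 18 in KO. Bin sizes differ between lists (350 bp in KO weeks 1 and 2, 400 bp in the other EB lists) and the scaling of these counts is not stated, so they rank genes within a list and were not compared between lists. H3K27me3 lay within 5 kb of 6 of the 10 genes in WT mESC.

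Of the cardiac factors 2 of 14 genes were newly marked, of the contractile genes 2 of 22 and of the smooth and skeletal muscle genes 2 of 15 (9.09 to 14.3%, against 4.25% of all coding genes). Tbx5 and Gata5, transcription factors of heart development, lay in H3K27me3 in WT mESC and were marked at all 3 weeks in WT and in KO. The Tbx5 domain had mean counts of 11.2, 9.72 and 8.50 at WT weeks 1, 2 and 3, and 10.3, 5.62 and 6.84 in KO. Acta2 and Lmod1, which encode smooth muscle actin and an actin nucleator, were also marked at all 3 weeks in both. Of the contractile genes, Ttn, the giant sarcomere protein, was marked in KO weeks 1 and 2 and not in KO week3, whereas WT listed it at all 3 weeks with mean counts of 16.4, 10.8 and 7.33. Casq2, the calcium store protein of heart muscle, was marked within 2 kb of its start in WT week3 and KO week2 and not in KO week3. Farther from the start its domain overlapped domains of mean count 10 in WT week2 and 7.67 in KO week3.

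The newly marked endothelial genes (3 of 15) were Cdh5, which encodes the junction protein VE-cadherin, Erg, a transcription factor, and Emcn, a sialomucin. All 3 had H3K27me3 in WT mESC and H3K4me3 at every WT week. In KO, Cdh5 was marked at all 3 weeks, Erg at weeks 2 and 3, and Emcn at weeks 1 and 2. The Cdh5 domain was 15600 bp long, with mean counts of 9.13, 9.40 and 8.64 in WT and 10.7, 8.21 and 6.35 in KO. Runx1, a transcription factor and the newly marked gene of the blood list (1 of 17), had a domain of 800 bp that KO week3 lacked.

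Of the endoderm and yolk sac list, 5 of 19 genes (26.3%) were newly marked, and none had H3K27me3 within 5 kb in WT mESC. Hnf4a, a master regulator of hepatocytes, was marked from week2 in both genotypes. Ttr, the thyroxine carrier, was marked at every week in both, and Cubn, the uptake receptor cubilin, from week1 in KO and from week2 in WT. Apob and Trf, which encode the lipoprotein component apolipoprotein B and the iron carrier transferrin, were marked in KO week1 and in neither later KO list. WT listed Apob at weeks 1, 2 and 3 with mean counts of 7.22, 8.42 and 9.84, and Trf at weeks 2 and 3. In all, 14 newly marked gene entries were in KO week1 and absent from both later KO lists, a course not counted over all coding genes.

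**Figure D5:**
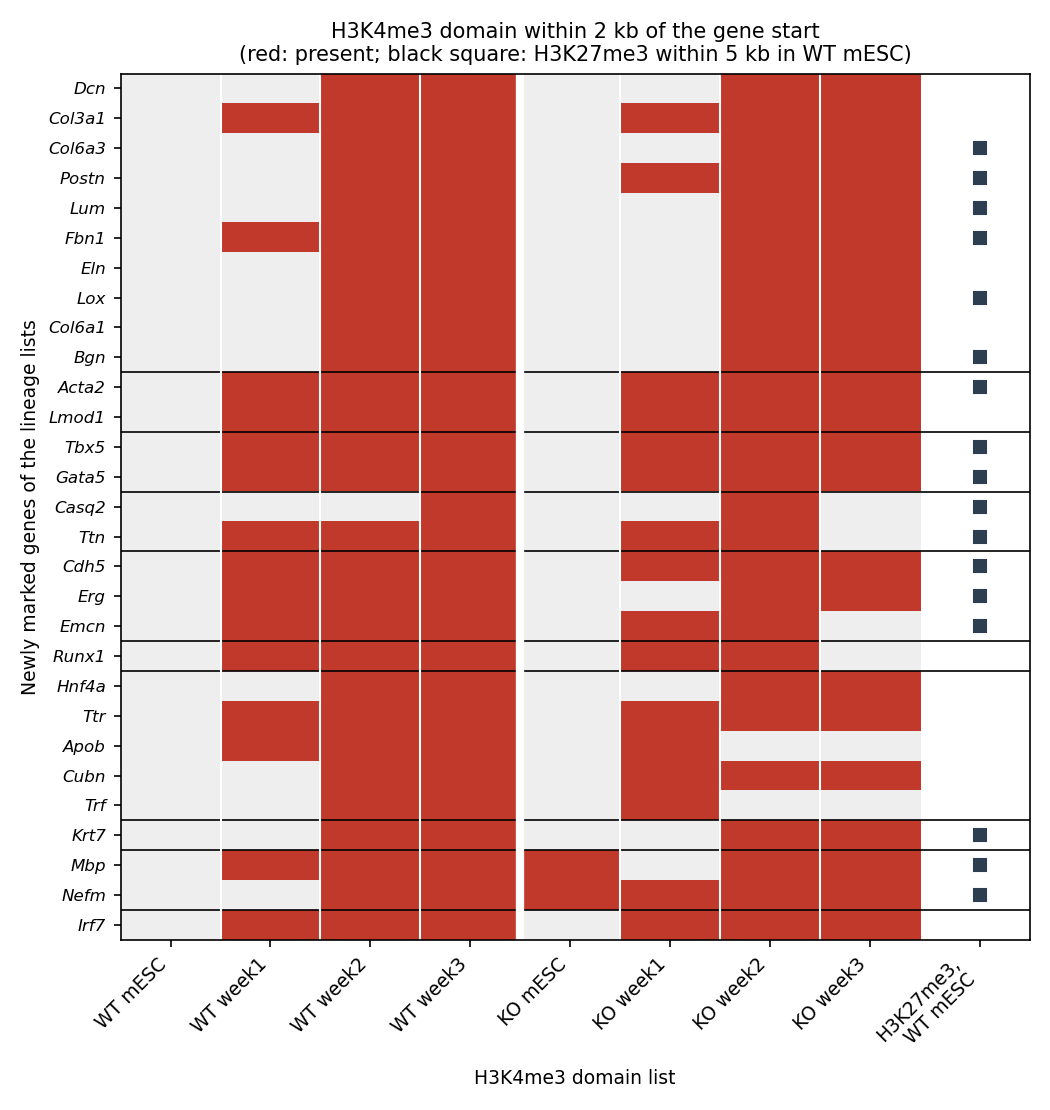
H3K4me3 within 2 kb of the start (red, present) in the 8 H3K4me3 lists for newly marked genes of the lineage lists, in the order extracellular matrix, muscle, cardiac factors, cardiac contractile, endothelium, blood, endoderm, epithelium, neuronal and interferon, with a black square for H3K27me3 within 5 kb in WT mESC. The 10 matrix genes are red in WT and KO weeks 2 and 3, whereas Casq2, Ttn, Emcn, Runx1, Apob and Trf lack KO week3.

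Of the neuronal list 2 of 19 genes (10.5%, against 4.25% of all coding genes) were newly marked. They were Mbp, the myelin basic protein gene, and Nefm, a neurofilament subunit gene, and both were already marked in KO mESC. The Nefm domain had mean counts of 7.17 and 8.0 at WT weeks 2 and 3. In KO these were 5.82 in mESC and 11, 5.74 and 9.08 at weeks 1, 2 and 3. None of the 15 matched neural transcription factors was newly marked, as 13 of them already had a WT mESC domain. Krt7, a simple epithelial keratin, and Irf7, an interferon regulator, were the single newly marked genes of their lists. The pluripotency, germline and housekeeping lists had none. Of the 18 pluripotency genes, 17 were marked in WT mESC and 16 in WT week3. H3K4me3 at these starts thus does not separate the stages and cannot check the stem cell label. Of the 17 germline genes, 4 were marked in WT mESC and 3 in WT week3.

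The 10 new domains of highest score at gene starts lay 2.90 to 1671 kb from the nearest WT mESC domain. The domain at Tet3, a dioxygenase that oxidises methylated cytosine, was 21600 bp long on chromosome 6 and 39.6 kb from the nearest WT mESC domain. Its mean counts were 8.70, 11.3 and 12.0 at WT weeks 1, 2 and 3, and 9.70, 6.88 and 11.4 in KO, with none in mESC of either genotype. Hoxd10 and Shh, a homeobox factor and a morphogen of limb and neural patterning, had H3K27me3 in WT mESC and domains in all KO EB lists. Pdgfrb, the receptor of mural and fibroblast cells, did so too. The domains at Hoxd10 and Pdgfrb lay only 2.90 and 5.80 kb from a WT mESC domain. Ehf, an epithelial ETS factor, lay outside H3K27me3 and H3K9me3 in WT mESC, 173 kb from the nearest WT mESC domain, and appeared at week2 in both genotypes. Tinagl1, a secreted matrix glycoprotein gene, lacked a domain in KO week1 and had one in KO weeks 2 and 3.

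The longest new domain, of 121200 bp, covered 4930467E23Rik and Gm6483 on chromosome 8. The next, of 90400 bp on the same chromosome, overlapped no coding gene. Those of 64000 and 49600 bp covered Tmem181b-ps on chromosome 17 and Gm8237 on chromosome 14. As 1 alignment was kept per read, reads from near-identical copies could be placed at any of them, and whether these segments are duplicated was not tested. Of the highest-scoring domains away from gene starts, 3 of 3 were on chromosome 8, in Sh3rf1, in Egln1 and between genes. Among those in Uhrf1 regions, the domain at a transcript start of Zbtb20, a zinc finger repressor, lacked WT week1 and had mean counts of 25 and 20.5 in WT weeks 2 and 3, and 9.40, 14.3 and 20.2 in KO.

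Among new domains at gene starts that shared no base with any KO EB domain, those of highest score were at Ren1, Tm4sf4, Ido2 and Nr0b2. Ren1 encodes renin, Ido2 a tryptophan-degrading enzyme, and Nr0b2 the nuclear receptor SHP, which represses bile acid synthesis. All 4 were absent from WT week1. Ren1 had mean counts of 6.50 and 7.13 at WT weeks 2 and 3, Tm4sf4 8.92 and 9.08, Ido2 11.5 and 6.48, and Nr0b2 9.73 and 7.45. The Ren1 domain ended 0.401 kb from a WT mESC domain, and Ren1 is not among the 71 genes counted above. The median score of all new domains in no KO EB list was 2.63, and these 4 had scores from 9.62 to 14.8. Those 71 were counted within 2 kb of the start and not over the whole domain, and among them Igf2 and Osgin1 had higher scores (30.1 and 23.1). Other genes of the 71, chosen like Osgin1 after their values were seen, were Agt (angiotensinogen), Fga (fibrinogen alpha chain), Afm (afamin) and Abcg8 (a sterol exporter). Their scores were 3.66, 1.88, 3.68 and 7.97. These names do not stand for a lineage. Of the endoderm and yolk sac list, Hnf4a, Ttr and Cubn were marked in KO weeks 2 and 3, and Apob and Trf in neither.

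The highest-scoring gene starts already marked in KO mESC were Mdfic, BC021614, Bmp5 and Sparcl1. Bmp5, a bone morphogenetic protein, had a mean count of 6.80 in KO mESC and 29.1, 21.4 and 19 at KO weeks 1, 2 and 3. In WT it was unlisted in mESC and had 24.6, 14.4 and 17.7. Sparcl1, a matricellular protein gene, had 5.43 in KO mESC, 9.30, 13.4 and 20 in KO EBs, and 5.72, 20.9 and 18.5 in WT EBs. Bmp5 carried H3K27me3 in WT mESC and Sparcl1 did not.

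Imprinted genes, whose single active copy is set by parental DNA methylation, were listed and examined after Igf2 was seen among the genes without a KO EB domain at the start. Of 38 imprinted genes listed, 8 were newly marked (4.25% of all coding genes were), of which 4 were marked in KO week3 (82.8% of all newly marked genes were). Igf2, a fetal growth factor, Cdkn1c, a cell cycle inhibitor, and Ascl2, a trophoblast transcription factor, which lie in the imprinted region of distal chromosome 7, had no domain within 2 kb of the start in any KO list. The domain at Igf2 was 12400 bp long, with mean counts of 12.3, 17.9 and 12.8 at WT weeks 1, 2 and 3. Away from the start it overlapped domains of mean count 6.67 and 7.25 in KO weeks 2 and 3. Cdkn1c was marked in WT weeks 2 and 3 and Ascl2 in all 3 WT weeks. Kcnq1 and Slc22a18, of the same region, were marked in KO week3. Igf2, Cdkn1c and Ascl2 had H3K27me3 within 5 kb in WT mESC and in all 4 KO lists. Imprinting itself was not measured here.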

How the data were processed

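ChIP-seq libraries of E14 WT and Uhrf1 KO mESC and EBs gave 25 region lists from 33 samples, and the 8 inputs were not used. Per the labels and methods, the authors aligned reads to mm9 with Bowtie2 2.1.0, keeping 1 alignment per read, called histone domains with RSEG against input and factor summits with MACS, 1 list per library. The deposited signal of a domain is the mean read count per bin, and the deposited score grows with its number of bins. Whether these were scaled to depth is not stated. Uhrf1 regions were deposited as coordinates of 10 kb windows, with no other values. Library read totals were not used.

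Overlaps of at least 1 bp were computed with Python 3.11 and numpy 2.4.6, and drawn with matplotlib 3.10.9. Overlap calls were tested on 4000 simulated regions, of which 0 were wrong. All 22 chromosomes fitted NCBIM37, and genes were those of GENCODE vM1, with 13 mitochondrial genes left out. The 1 new domain on the mitochondrial chromosome stayed among the 7166. Promoter sequences of another build were not used.

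The members, gene lists and comparisons were chosen with earlier results of these data known. Genes were named by score: 10 at gene starts, 4 for each mESC state, 3 distal, 4 without and 4 with a KO domain, and up to 4 of each lineage list. Other names were chosen later and are said to be. Matrix genes past the first 4, and Trf, complete their counts.

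Alternatives were coverage of at least 50%, scores above the list median, no WT mESC domain within 5 kb, and presence in WT week1. Leaving out chromosomes 8 and 11 and keeping domains of at least 1300 bp were chosen after seeing the data.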

Additional observations from a re-analysis of the deposited data

Results flagged for a closer look

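H3K27me3 at the new domains differed in direction between stages when KO was set against WT. In mESC 4.07% of new domains overlapped KO H3K27me3 and 34.3% overlapped WT H3K27me3, a difference of -30.3 points. The difference was 4.10 points at EB week1, -3.38 points at week2 and -12.6 points at week3. Week1 was the stage at which KO was higher. The change of sign between stages was not tested, since each stage and genotype had 1 library. The extent of H3K27me3 domains moved with it, as the lists covered 36.1% of the genome in WT mESC and 3.17% in KO mESC, 3.81% and 6.78% at week1, 43.9% and 17.6% at week2, and 29.8% and 15.8% at week3. Their part in the result was not tested. Over all WT EB week3 H3K4me3 domains the WT and KO shares were 31.0% and 6.80% in mESC, 17.8% and 19.1% at week1, 23.5% and 22.7% at week2, and 30.1% and 18.8% at week3, so the signs were the same as at the new domains.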

How the results depend on the processing

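Of 66 recomputed shares and differences of 11 results, 43 lay outside the interval of the original value, 23 did not and 0 changed sign. The number of new domains, which has no interval, changed by over 1.5 times in 3 of 6 settings. With at least 50% coverage, the shares of new domains with H3K4me3 were 52.3% in KO week3, 61.3% in KO week2, 17.8% in KO week1 and 7.79% in KO mESC, Uhrf1 0.991%, gene start 10.5%, and new minus kept -40.0 points for KO week3 and 8.84 for mESC H3K27me3. Above the median score, 1153 domains remained, with 87.4%, 89.9%, 41.5% and 16.4% in the same 4 lists, Uhrf1 1.99%, gene start 30.5%, and differences of -12.1 and 6.77 points. With no WT mESC domain within 5 kb, KO mESC gave 7.18%. With WT week1 also required, 2109 remained, with 87.6%, 87.0%, 60.6% and 13.1%, mESC H3K27me3 43.8%, H3K9me3 28.2%, Uhrf1 1.94%, gene start 26.0%, and differences of -11.5 and 13.4 points. Without chromosomes 8 and 11, a choice made after seeing the data, KO week3 gave 64.1%, KO week2 75.7%, KO week1 30.4%, H3K27me3 31.4%, H3K9me3 19.5%, gene start 13.9%, the differences -33.8 and 3.61 points, and the KO week3 difference by mESC H3K27me3 7.92 points. Domains of at least 1300 bp, also chosen later, numbered 4280, with 70.2%, 80.7%, 31.3% and 11.7%, H3K9me3 25.9%, gene start 18.4%, and a KO week3 difference of -28.1 points. Each setting keeps other or fewer domains by construction. No paired analysis was possible because each group had 1 library. For the same reason no replicate could be left out, and depth could not be set against these shares.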

Other observations

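Gene symbols that share a stem were grouped, and 17 stems with at least 10 genes had 4 or more newly marked members. Of the 44 genes with the stem Col 11 were newly marked (25%, against 4.25% of all coding genes), and KO week3 held 10 of them. They included Col13a1, Col15a1, Col8a1, Col24a1 and Col19a1, which are outside the matrix list above. The metalloproteinases Adamts3, Adamts12, Adamts16, Adamts17 and Adamts19 made 5 of 19, all marked in KO week3, as were the 5 of 22 Fgf genes (Fgf7, Fgf12, Fgf13, Fgf14 and Fgf16). The interferon-induced GTPases Gbp5, Gbp6, Gbp8 and Gbp11 made 4 of 11 and are paralogues, as are some genes of other stems, so these counts are not independent. Of 19 newly marked Slc transporters in 355 (5.35%), 17 were in KO week3. Stems with lower KO week3 shares included Gpr (10 of 14), Cd (3 of 6) and Htr (2 of 4). Of all newly marked genes, 82.8% were in KO week3. The stems were chosen after the data were seen and carry no test.

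Of the 163 new domains on the X chromosome 39.9% lay at a gene start, the highest share of any chromosome shown, and 79.8% were in KO week3.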
